A study of Mus musculus with 1615 samples.

Results

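The cells described here were pericytes of the mouse colon, the mural cells that lie on capillaries and share a basement membrane with the endothelium. They were taken from single-cell libraries by 4 conditions on CPM, each gene's counts scaled to 1000000 counts in its cell. A chosen cell had at least 200 CPM of Notch3, less than 200 CPM of Pdgfra, less than 200 CPM of Cdh5, and a sum of Abcc9 and Gpx3 at least as large as the sum of P2rx1 and Sorbs2. All 4 conditions were met by 42, 15 and 79 cells of 3 mice and by 1 cell of a further mouse, together 8.48% of the 1615 cells of the series (exact 95% binomial interval 7.17 to 9.95). These 7 genes made the choice, so their levels in the chosen cells are descriptions and carry no test.

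Pericytes are recruited by platelet-derived growth factor B, which endothelial cells secrete and which the receptor Pdgfrb on the pericyte binds. They also receive Notch signals through Notch3, and their ATP-sensitive potassium channel, built of the pore Kcnj8 and the sulfonylurea receptor subunit Abcc9, couples the metabolic state of the tissue to membrane potential. Along the vessel tree they grade into the smooth muscle of arterioles, and their contractile protein content varies with position.

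Each library was 1 cell sorted by flow cytometry from a reporter mouse and sequenced by Smart-Seq2, a full-length method without molecular identifiers. The mice were 11 animals of 8 to 30 weeks by the sample labels, while the series text gives males only, and the sort gates were not given in the sources used here. All chosen cells but 1 came from 3 mice of the ACTA2GFP:CSPG4dsRED line, a pair of fluorescent reporters named for a smooth muscle actin and a mural and glial surface proteoglycan. They numbered 42 in the female 20GG79:1 (11.7% of its cells, interval 8.56 to 15.5), 15 in the male 20GG79:6 (6.20%, interval 3.51 to 10.02) and 79 in the female 20GG95:3 (15.6%, interval 12.6 to 19.1). The CSPG4dsRED male 19CB27:3 gave 1 cell (0.855% of its cells, interval 0.0216 to 4.67). The other 7 mice, of the ACTA2GFP, PDGFRaH2bGFP and PDGFRbGFP lines, gave 0 chosen cells, and the upper limit that a count of 0 allows ran from 1.51% in the mouse with most cells to 60% in the mouse with 5 cells. The cells of the 3 PDGFRbGFP mice had a median of 7.20 CPM Pdgfrb. Mice are the units of replication throughout, written in the order 20GG79:1, 20GG79:6 and 20GG95:3, and 20GG95:3 was sorted on 2 plates.

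The label was checked against 6 pericyte markers, of which 5 were not in the rule. Counts of all 6 were found in 100 chosen cells, of 5 in 28, of 4 in 7 and of 3 in 2. Rgs5, a regulator of G protein signalling and a standard pericyte marker, stood at 4315, 4199 and 3877 CPM of summed counts in the 3 mice. Pdgfrb stood at 2897, 2871 and 3140 CPM. The 3 values of each gene lay close together, and each mouse's chosen cells were far above its remaining cells, at 415.5, 321.5 and 841 CPM of Rgs5 and 368.4, 414.9 and 497.6 CPM of Pdgfrb. Vtn, which encodes vitronectin, stood at 756, 1100 and 1225 CPM against 48.02, 54.1 and 60.1 CPM. Ndufa4l2, a mitochondrial protein of low-oxygen cells, stood at 590, 638 and 540 CPM against 29.998, 73.7 and 94.97 CPM. Cspg4, the proteoglycan NG2 for which the dsRED reporter is named, stood at 1324, 1489 and 1024 CPM against 149.2, 286.02 and 390 CPM. Against cells that failed only the last condition of the rule (the vascular side below), 0 of these 5 markers were at least 4-fold higher in every mouse. Cspg4 averaged 1258 CPM per cell there and 1281 CPM in chosen cells. By that limit 4 of the 5 markers set chosen cells apart from the remaining cells as a whole, and 0 from the vascular side. Cspg4 missed the limit against the remaining cells in 20GG95:3. Scaled per kilobase of exon, which allows genes to be compared, the order was Rgs5 (909 ± 49.8 CPM per kb, SD, n = 3 mice), Pdgfrb (542 ± 27.1), Ndufa4l2 (538 ± 44.7), Vtn (505.8 ± 119.5), Kcnj8 (454.6 ± 9.52), Notch3 (298.6 ± 30.4), Abcc9 (111.9 ± 18.8) and Cspg4 (107.2 ± 19.7). Neighbours from Pdgfrb to Kcnj8 overlapped in their ranges over mice, as did Abcc9 and Cspg4.

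**Figure D1:**
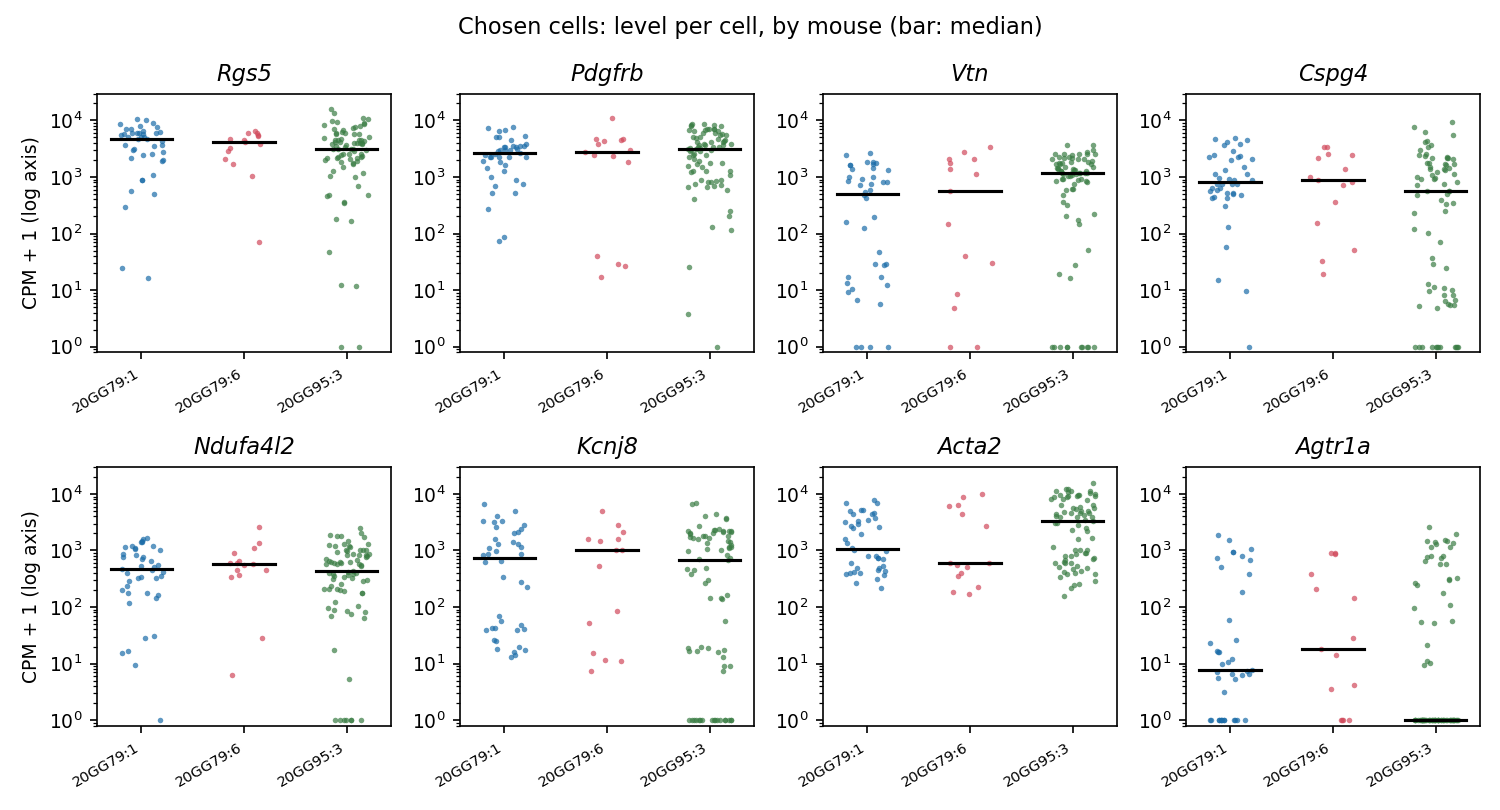
Level of 8 genes in each chosen cell of the 3 mice, as CPM + 1 on a log axis; each point is 1 cell and the bar is the median of the mouse. Rgs5 and Pdgfrb were high in nearly every cell, while Vtn, Cspg4, Kcnj8 and Agtr1a each split into cells with high CPM and cells near 0.

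Promoter sequence is shown for Vtn and Kcnj8, of the pericyte programme, and for Colec11 and Sstr2, so that a reader can inspect the letters around their starts. Summed Colec11 and Sstr2 differed in opposite directions between the Chrdl1-high and Agtr1a-high chosen cells described below. Each window holds 250 bases before and 50 after the annotated start on the gene's strand, in GRCm38.p6 from RefSeq, at chr11:78498870-78499169 (plus) for Vtn, chr6:142571565-142571864 (minus) for Kcnj8, chr12:28623281-28623580 (minus) for Colec11 and chr11:113619077-113619376 (plus) for Sstr2. Capitals mark TGGGAA, the core recognised by the Notch effector RBPJ, or its reverse complement TTCCCA.
Vtn: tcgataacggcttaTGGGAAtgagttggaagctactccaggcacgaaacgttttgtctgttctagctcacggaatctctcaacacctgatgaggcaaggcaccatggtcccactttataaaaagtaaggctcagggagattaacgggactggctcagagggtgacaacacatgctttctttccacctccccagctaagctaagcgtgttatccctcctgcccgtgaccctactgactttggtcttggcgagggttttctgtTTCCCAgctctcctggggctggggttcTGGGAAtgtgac
Kcnj8: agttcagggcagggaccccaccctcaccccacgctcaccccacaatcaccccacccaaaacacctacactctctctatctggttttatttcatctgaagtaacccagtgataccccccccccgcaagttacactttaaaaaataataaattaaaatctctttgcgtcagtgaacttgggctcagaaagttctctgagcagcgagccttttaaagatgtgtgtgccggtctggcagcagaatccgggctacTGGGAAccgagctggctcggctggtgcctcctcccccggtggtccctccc
Colec11: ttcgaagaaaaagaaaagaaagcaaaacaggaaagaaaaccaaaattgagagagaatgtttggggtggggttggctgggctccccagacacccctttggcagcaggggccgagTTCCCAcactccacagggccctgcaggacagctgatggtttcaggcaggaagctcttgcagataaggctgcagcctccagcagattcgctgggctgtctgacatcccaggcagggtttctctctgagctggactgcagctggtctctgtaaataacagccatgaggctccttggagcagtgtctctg
Sstr2: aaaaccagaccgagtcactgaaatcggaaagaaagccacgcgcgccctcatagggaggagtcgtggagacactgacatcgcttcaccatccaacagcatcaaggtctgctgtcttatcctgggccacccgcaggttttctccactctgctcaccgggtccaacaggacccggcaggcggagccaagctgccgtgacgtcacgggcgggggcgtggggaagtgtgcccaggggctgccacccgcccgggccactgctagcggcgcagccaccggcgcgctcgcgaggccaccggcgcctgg
The letters were found 3 times in the Vtn window, 1 time in that of Kcnj8, 1 time in that of Colec11 and 0 times in that of Sstr2. Of all 32851 promoters in the table, 25.6% held at least 1 match on either strand, as did 22.8% of the 11071 promoters of tested genes. Of the 66 genes at least 4-fold higher in chosen cells than in all others (0.578% of those tested), 40 had a promoter in the table, and 16 of their 54 promoters (29.6%) held a match. The match is a description of letters, and its presence near a start does not show binding.

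Single cells varied far more than mice did. Vtn had a median of 916 CPM over the chosen cells and was absent from 16 of them, Cspg4 a median of 755 CPM and absent from 13, and Kcnj8 a median of 678 CPM and absent from 17. Rgs5 was absent from 2 cells and Pdgfrb from 1. Among cells of the series with at least 200 CPM of Cdh5, which should lack pericyte genes, some Vtn count was present in 28.6% and some Rgs5 count in 66.5%, against 88.3% and 98.5% of chosen cells. With every cell thinned to 40000 counts these shares were 6.02% and 30.1%, against 81.8% and 96.4%. The median depth was 237044 counts in the Cdh5 cells and 119958 in the chosen cells, so the deeper cells had the lower shares.

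A few cells lay close to the limits of the rule on either side. The 7 cells just inside the Notch3 limit, from 200 to under 300 CPM, had a median Rgs5 of 5011 CPM and a median Pdgfrb of 1268 CPM. The 7 cells just outside, from 100 to under 200 CPM, had 1202 and 1977 CPM. A further 16 cells under the Notch3 limit carried at least 2000 CPM of Rgs5 with at least 1000 CPM of Pdgfrb. At the other limit, 9 cells inside and 8 outside were within 2-fold of equality between Abcc9 + Gpx3 and P2rx1 + Sorbs2, with median Pdgfrb at 1273 and 3594 CPM.

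Depth ran from 49106 to 540944 counts per chosen cell, and no 2 cells held the same counts. Chosen cells of 20GG95:3 had a median of 2963 genes detected, against 5330.5 and 5368 in the other 2 mice. At least 2 markers at 100 CPM or more were held by 99 cells for fibroblasts, 54 for visceral smooth muscle, 12 for epithelium, 11 for interstitial cells of Cajal, 7 for vascular smooth muscle, 5 for immune cells and 2 each for blood endothelium, lymphatic endothelium and glia. Neuronal markers reached this in 0 cells, with Elavl4 at 0 counts. Of the 8 immune markers, the summed level was 23.3, 1039 and 7.09 CPM, and 4 of the 5 cells were in the male. Values without the cells that held 2 markers of epithelium, immune cells, endothelium or glia are given with the counts of each comparison, and the part of visceral and fibroblast transcripts in the results was not tested.

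Chosen cells were set against 3 references within each mouse, from summed counts per mouse and class. The references were all other cells, the cells on the opposite side of the rule (Notch3 high with P2rx1 + Sorbs2 above Abcc9 + Gpx3, the vascular muscle side, with 10, 14 and 89 cells) and 555 cells low in Notch3, Pdgfra and Cdh5 with at least 500 CPM of Myh11 (69 in the male and the rest in the 2 females, mostly visceral muscle). Differences are given as log2(CPM + 1), chosen cells minus reference, as the mean ± SD of 3 mice. A gene was called when it differed at least 4-fold in 1 direction in all 3 mice. Because the classes were cut from the same values, calls are descriptions without p-values. Against the vascular side 1.81% of 10964 genes were called higher and 1.12% lower, and against Notch3-low Myh11-high cells 1.77% of 11163 genes were higher and 3.11% lower. Without cells holding 2 markers of epithelium, immune cells, endothelium or glia the shares were 1.43% and 1.19% of 10779 genes, and 1.63% and 3.84% of 10950. Of the genes called higher, 66.2% and 78.3% were called in both fits. The median over all genes was 0.17 and -0.32, and scaling the sums by TMM moved it by -0.13 and -0.10. Counts and medians of the gene lists below are to be read beside these shares and medians of all genes.

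Against all other cells, 66 of 11412 genes were at least 4-fold higher in every mouse (0.578%) and 2.95% were at least 4-fold lower. Without the cells that held markers of other types 72 of 11081 genes were higher and 4.02% lower, and 54 of the 66 higher and 87.2% of the lower genes were among them. The genes with the largest difference in the least favourable mouse, leaving out those of the rule, were Sstr2, Sema5b, Colec11, Olfm2 and Lamc3. Sstr2, the somatostatin receptor 2, stood at 111.9, 76.4 and 78.4 CPM, against 3.27, 0.0589 and 0.0706 CPM in the remaining cells. Olfm2, an olfactomedin, stood at 225.4, 35.6 and 110.9 CPM, and Sema5b, a transmembrane semaphorin, at 70.2, 460 and 65.9 CPM. Plxdc1 (plexin domain containing 1), Tnfrsf21 (death receptor 6), Pde4c, Ndst3, Pdzd2, Pcdh19 and Trarg1 were also among the 15 largest, with mean differences from 3.09 ± 0.16 for Pdzd2 to 5.08 ± 1.19 for Pde4c. Lower in chosen cells were, among others, Dchs1, a large cadherin (3.66, 2.64 and 1.77 CPM against 168.99, 141.1 and 180.7), Sncaip (-5.09 ± 0.09) and Syt13 (-4.86 ± 0.14).

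The genes with the largest difference from the vascular side were, besides Sstr2, Dll4 and Agtr1a, of mixed function. Pla1a, a phospholipase of phosphatidylserine, stood at 72.5, 44.5 and 48.8 CPM against 1.57, 0.250 and 0.209 CPM, and was the same distance above Notch3-low Myh11-high cells (5.13 ± 0.27 and 5.39 ± 0.11). Bmper, a secreted BMP-binding protein, stood at 49.6, 292.6 and 23.9 CPM, highest in the male, and at 0.499 CPM or less on the vascular side. Prex2, an exchange factor for Rac, Fxyd6, a regulator of the sodium pump, and Ifi47, an interferon-induced GTPase, were higher by 4.90 ± 0.38, 5.21 ± 1.00 and 5.70 ± 1.27. Asb2, a ubiquitin ligase subunit of muscle, was lower than in both muscle groups, at 6.58, 24.1 and 11.6 CPM against at least 456.1 CPM on the vascular side and 337.96 CPM in Notch3-low Myh11-high cells. Sox6 was lower than on the vascular side only (-4.21 ± 0.45).

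Against Notch3-low Myh11-high cells, Cdh2, which encodes N-cadherin and joins pericytes to endothelium, stood at 251.7, 207.2 and 160.5 CPM against 0.617, 0.832 and 0.164 CPM. The vascular side of the male reached 132.1 CPM of Cdh2, while those of the females had 2.36 and 9.84 CPM. Adamts13, the protease of von Willebrand factor, was even between mice at 66.1, 67.9 and 67.9 CPM, but the vascular side held as much (105.1, 42.4 and 103.9 CPM). Slc7a2, a transporter of arginine and lysine, stood at 360.5, 262.9 and 258.8 CPM against at most 4.48 CPM. Itga7, the laminin receptor subunit of muscle, and Angpt2, a ligand of the endothelial receptor Tie2, were also higher (3.34 ± 0.85 and 2.87 ± 1.37) and did not pass against the vascular side.

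The ATP-sensitive potassium channel differed in its subunits between summed chosen cells and the vascular side, though the rule itself used Abcc9. Its subunit genes are neighbours on chromosome 6 (GRCm38), Kcnj8 at 142564837 to 142571614 and Abcc9 at 142587862 to 142702315, both on the minus strand. Kcnj8, the pore, stood at 1181, 1160 and 1133 CPM in chosen cells, and at 147.2, 204.7 and 76.99 CPM on the vascular side (3.12 ± 0.69). Abcc9, which the rule used, stood at 784, 929 and 1099 CPM against 48.03, 37.7 and 42.02 CPM. Abcc8, the sulfonylurea receptor better known from the beta cell, went the other way, at 0.366, 17.8 and 14.6 CPM against 148.8, 136.8 and 130.9 CPM (-4.24 ± 2.20). Outside the rule, Kcnj8 was thus called higher and Abcc8 lower than on the vascular side. These are sums per mouse, and single chosen cells ranged from 0 to 7032 CPM of Kcnj8, with 17 at 0. Against the muscle of Notch3-low Myh11-high cells Kcnj8 differed by 2.62 ± 0.76 and was not called. Kcnj11, the other pore gene of the family, was at 3.17, 0 and 0.111 CPM.

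Of 35 other ion channel and calcium handling genes measured against the vascular side, 1 was called higher and 5 lower, beside 1.81% and 1.12% of all genes. The list median was -1.07, beside 0.17 over all genes tested. Lower were Cacna1g, a T-type calcium channel (6.71, 16.8 and 2.77 CPM against 257.8, 355.7 and 197.96), the potassium channel genes Kcnab1, Kcna5 and Kcnh2, and Pln, the inhibitor of the sarcoplasmic calcium pump (136.8, 9.88 and 28.1 CPM against 1066, 406.9 and 849). The higher one was Piezo2, a mechanically gated channel, at 78.8, 173.3 and 113.2 CPM against 3.15, 22.7 and 0.140 CPM. Against the Notch3-low Myh11-high cells, Kcnma1, the large-conductance potassium channel of smooth muscle, was lower (3.17, 1.98 and 0.443 CPM against 103.8, 132.3 and 187.1).

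Some Notch components beyond the Notch3 of the rule were higher than in Notch3-low Myh11-high cells, and 1 was called higher than on the vascular side. Heyl, a transcription factor induced by Notch, stood at 1454, 1448 and 969 CPM in chosen cells, at 806, 696 and 814 CPM on the vascular side and at 27.9, 2.76 and 8.16 CPM in Notch3-low Myh11-high cells. Chosen cells of every mouse were above both references, although the difference from the vascular side was only 0.72 ± 0.42. Dll4, a Notch ligand best known from endothelial tip cells, stood at 163.99, 356.5 and 108.998 CPM in chosen cells, against 2.76, 1.25 and 0.768 CPM on the vascular side. It reached 200 CPM in 17 chosen cells and was absent from 95, so the sum rested on a minority of cells. Over all chosen cells Cdh5, which the rule held under 200 CPM, never passed 13.8 CPM and had a count in 4.38%. Pecam1 stood at 10.97, 19.4 and 11.4 CPM. These values are not for the cells with Dll4 alone. Plvap, another endothelial gene, nonetheless stood at 236.9, 79.4 and 198.6 CPM, with 34 cells at 200 CPM or more. Notch1 (274.3, 571 and 559 CPM), Hey1 and Hey2 were higher than in Notch3-low Myh11-high cells. Of 15 Notch genes measured against those cells 6 were called higher and 0 lower, beside 1.77% and 3.11% of all genes, and 1 of the 6 is the Notch3 of the rule. Against the vascular side 1 of 15, Dll4, was higher and 0 were lower, beside 1.81% and 1.12% of all genes. The list median there was 0.07, beside 0.17. Against all other cells 3 of 18 were higher, among them Notch3, and Dll1 was lower, beside 0.578% and 2.95% of all genes.

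**Figure D2:**
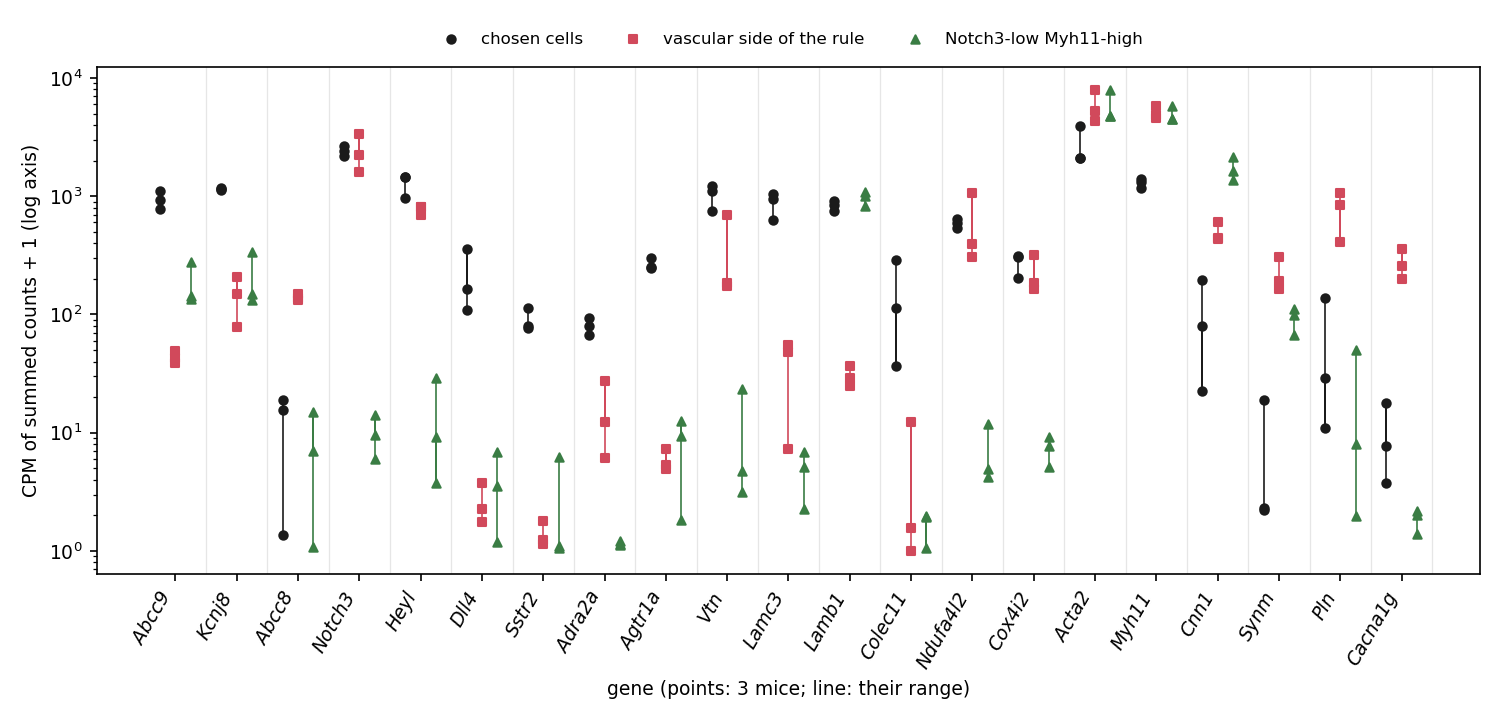
Summed level of 21 genes as CPM + 1 on a log axis in chosen cells (black circles), the vascular side of the rule (red squares) and Notch3-low Myh11-high cells (green triangles); each point is 1 of 3 mice and the line spans them. Kcnj8, Dll4, Sstr2, Agtr1a, Lamc3 and Lamb1 lay above the vascular side in all 3 mice, Ndufa4l2 and Cox4i2 overlapped with it, and Pln, Synm and Cacna1g lay below it.

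Receptors for circulating and neural signals were called in both directions. Agtr1a, the angiotensin II receptor, stood at 244.3, 253.4 and 296.5 CPM in chosen cells, against 4.33, 6.24 and 3.91 CPM on the vascular side and 8.45, 11.6 and 0.838 CPM in Notch3-low Myh11-high cells. The sum hides a split, because Agtr1a was absent from 64 cells and at 200 CPM or more in 38. Sstr2 had a count in 20.4% of chosen cells and reached 2236 CPM in 1. Adra2a, the alpha-2A adrenergic receptor, stood at 66.2, 78.7 and 93.2 CPM and was 6.10 ± 0.29 above Notch3-low Myh11-high cells, where it was near 0. Ptgir, the prostacyclin receptor, stood at 225.6, 280.7 and 244.8 CPM, and overlapped with the vascular side (193.3, 410 and 199.3 CPM). Adra1a, the alpha-1A adrenergic receptor of resistance vessels, was the reverse, at 13.8, 0.659 and 18.4 CPM against 246.03, 145.04 and 87.7 CPM on the vascular side. Npy1r, the neuropeptide Y receptor, was lower as well (-2.68 ± 0.52). Among receptors of gut muscle, Tacr2 for neurokinin A, Bdkrb2 for bradykinin and Ptger2 for prostaglandin E2 were at most 12.9 CPM in chosen cells and at least 44.01 CPM in Notch3-low Myh11-high cells. In all, 5 of 42 vasoactive receptor genes were called higher and 10 lower against those cells, and 1 higher and 4 lower of 34 against the vascular side. The rule fixed 1 of those 4, P2rx1, which leaves 3 lower of 33. Beside these counts, 1.77% of all genes were higher and 3.11% lower than in Notch3-low Myh11-high cells. Against the vascular side the shares of all genes were 1.81% and 1.12%.

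Of 13 nitric oxide and cyclic GMP genes, 0 were called higher and 1 lower than on the vascular side, beside 1.81% and 1.12% of all genes. Called against Notch3-low Myh11-high cells were 1 higher and 0 lower, beside 1.77% and 3.11% of all genes. Gucy1a1 and Gucy1b1, the subunits of soluble guanylate cyclase, stood at 1591, 1879 and 1532 CPM and at 635, 793 and 440 CPM, and differed from the vascular side by -0.01 ± 0.25 and 0.19 ± 0.46. Gucy1a2, an alternative alpha subunit, was called higher against Notch3-low Myh11-high cells (72.2, 73.8 and 97.8 CPM against 2.90, 0.104 and 2.64). Prkg2, a cyclic GMP-dependent kinase, was lower than on the vascular side (1.22, 0 and 0 CPM against 66.1, 78.1 and 15.4).

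Among basement membrane genes, 2 laminin chains and a collagen IV chain were called against the vascular side. Lamc3, the laminin gamma-3 chain, stood at 623, 947 and 1051 CPM, against 6.30, 53.9 and 46.8 CPM on the vascular side and 1.27, 4.16 and 5.84 CPM in Notch3-low Myh11-high cells. Lamb1, the beta-1 chain, stood at 743, 912 and 837 CPM against 23.6, 28.2 and 35.5 CPM on the vascular side, but at 1011, 1076 and 829 CPM in Notch3-low Myh11-high cells. Lamb1 therefore separated chosen cells from vascular muscle only, and Lamc3 from both. Col4a2 was called higher against the vascular side at 2262, 2530 and 2509 CPM against 458.996, 616 and 610, while Col4a1 missed the limit in the male (1.91 ± 0.43). In all 3 of 22 basement membrane genes were called higher against the vascular side and 0 lower, beside 1.81% and 1.12% of all genes. The list median was 1.06, beside 0.17.

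Fibrillar and elastic matrix genes gave 4 of 39 higher and 0 lower against the vascular side, beside 1.81% and 1.12% of all genes. The list median was 1.66, beside 0.17. Against Notch3-low Myh11-high cells 1 was higher and 3 lower of 40, beside 1.77% and 3.11% of all genes. The list median there was -0.57, beside -0.32. Dcn, decorin, stood at 817, 1140 and 1071 CPM in chosen cells, 98.02, 254.9 and 26.04 CPM on the vascular side, and 837, 463.5 and 537 CPM in Notch3-low Myh11-high cells. Fn1, fibronectin, stood at 332.98, 382.2 and 323.9 CPM in chosen cells, above the vascular side (42.1, 75.1 and 11.3) and below Notch3-low Myh11-high cells (1053, 1257 and 856). Tnxb and Fbn1 were the other 2 that were higher than on the vascular side. These are also fibroblast genes, and Dcn belongs to the fibroblast marker list that 99 chosen cells passed. Pdgfra, the defining fibroblast receptor, was held down by the rule. The summed level of the 8 fibroblast markers in chosen cells was 3848, 2979 and 3905 CPM, and 0 of the 8 were without counts. Gsn, gelsolin, made up most of it at 2436, 1759 and 2593 CPM in chosen cells, and stood at 2004, 2518 and 2146 CPM on the vascular side. Lum, lumican, stood at 262.5, 12.5 and 83.1 CPM in chosen cells against 37.4, 11.2 and 4.05, and Col14a1, a fibril-associated collagen, at 142.8, 29.3 and 124.3 CPM against 23.6, 157.3 and 3.91. Lowest of the markers outside the rule were Pi16, at 4.76, 1.65 and 0.997 CPM, and Clec3b, at 8.90, 0.659 and 0.111 CPM. The part of fibroblast transcripts in these differences was not tested.

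Complement and chemokine genes were called higher 4 times among 21 against Notch3-low Myh11-high cells, and lower 1 time, beside 1.77% and 3.11% of all genes. Il34, a ligand of the macrophage receptor Csf1r, stood at 576, 456.01 and 566 CPM against 15.3, 26.99 and 15.2. Ccl11, eotaxin, stood at 144.1, 290 and 494.5 CPM against 23.97, 21.2 and 70.7. Colec11, a collectin that recognises microbial sugars, stood at 113.3, 35.6 and 287.9 CPM against 0.966, 0.0520 and 0.947 CPM. The Colec11 sum rested on a minority of cells, with a count in 23.4% of chosen cells and 200 CPM or more in 21. In the male it was absent from 13 of 15 cells. Cxcl14, a chemokine, was called against the vascular side alone, at 168.02, 254.04 and 76.9 CPM against 3.94, 4.49 and 0.279.

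Acta2 and Myh11, the main contractile genes of smooth muscle, were below both muscle groups in every mouse, and neither was called. Acta2, smooth muscle actin, stood at 2102, 2107 and 3888 CPM, against 5283, 4284 and 7846 CPM on the vascular side (-1.12 ± 0.18) and 4802, 4756 and 7848 CPM in Notch3-low Myh11-high cells (-1.13 ± 0.10). Myh11, smooth muscle myosin, which also defined the second reference, was lower than on the vascular side by -1.96 ± 0.14. Against the vascular side 1 of 41 contractile genes was called lower, beside 1.12% of all genes. It was the intermediate filament gene Synm (17.9, 1.32 and 1.22 CPM against 302.3, 192.7 and 161.7). Against Notch3-low Myh11-high cells 4 were called lower, namely Actc1, Myh10, Cnn1 and Actg2, beside 3.11% of all genes. Des, desmin, did not separate the groups, at 1417, 1740 and 1599 CPM in chosen cells and 2204, 1550 and 3031 CPM on the vascular side. Single cells ranged from 156.2 to 15367 CPM of Acta2.

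Of 10 genes for low-oxygen type mitochondrial proteins, 0 were called higher and 0 lower than on the vascular side, beside 1.81% and 1.12% of all genes. Against Notch3-low Myh11-high cells 3 were higher and 0 lower, beside 1.77% and 3.11% of all genes. Ndufa4l2 differed from the vascular side by 0.22 ± 0.87 and Cox4i2, the lung-type cytochrome oxidase subunit, by 0.34 ± 0.49, and neither was called. Against Notch3-low Myh11-high cells the differences were 6.55 ± 0.79 and 5.25 ± 0.72. Higd1b was uneven, at 54.99, 9.88 and 125.7 CPM in chosen cells against 0.787, 44.9 and 14.9 CPM on the vascular side, above it in both females and below it in the male, and absent from 94 chosen cells.

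Among transcription factors Nr2f2, a nuclear receptor of venous identity, stood at 234.8, 478.7 and 328.99 CPM and was higher than in Notch3-low Myh11-high cells (11.3, 13.4 and 12.8 CPM) but not than on the vascular side (322.4, 351.2 and 255.1). Tcf21 was called against the vascular side alone, at 335.3, 338.7 and 201.5 CPM against 62.2, 74.9 and 21.6. Foxf2, a forkhead factor of gut muscle, stood at 3.54, 1.98 and 28.1 CPM against 192.8, 131.4 and 177.1 CPM in Notch3-low Myh11-high cells. Ebf2 was called against all other cells, at 114.2, 43.8 and 102.5 CPM against 4.34, 6.33 and 3.60. Of 42 genes of the BMP, TGF-beta, WNT and Hedgehog pathways, 0 were higher and 7 lower than in Notch3-low Myh11-high cells. The shares of all genes were 1.77% and 3.11%. Among the 7 were the Hedgehog target Hhip (115.5, 25.7 and 14.4 CPM against 2295, 1982 and 1615), Ptch1 and Gli1. Igf1 was also lower there (4.88, 4.94 and 2.77 CPM against at least 235.7 in each mouse).

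Of 23 genes induced by tissue dissociation, 4 were called lower in chosen cells than on the vascular side and 0 higher, beside 1.12% and 1.81% of all genes. The list median was -1.82, beside 0.17. The 4 genes were Nr4a2, Atf3, Ier3 and Zfp36, and Atf3 stood at 122.8, 19.8 and 157.8 CPM against 1341, 764 and 1377. Against Notch3-low Myh11-high cells 0 of 23 were called in either direction, beside 1.77% higher and 3.11% lower of all genes. The median there was -0.83, beside -0.32 over all genes. Whether these genes had a part in the other differences from the vascular side was not tested.

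**Figure D3:**
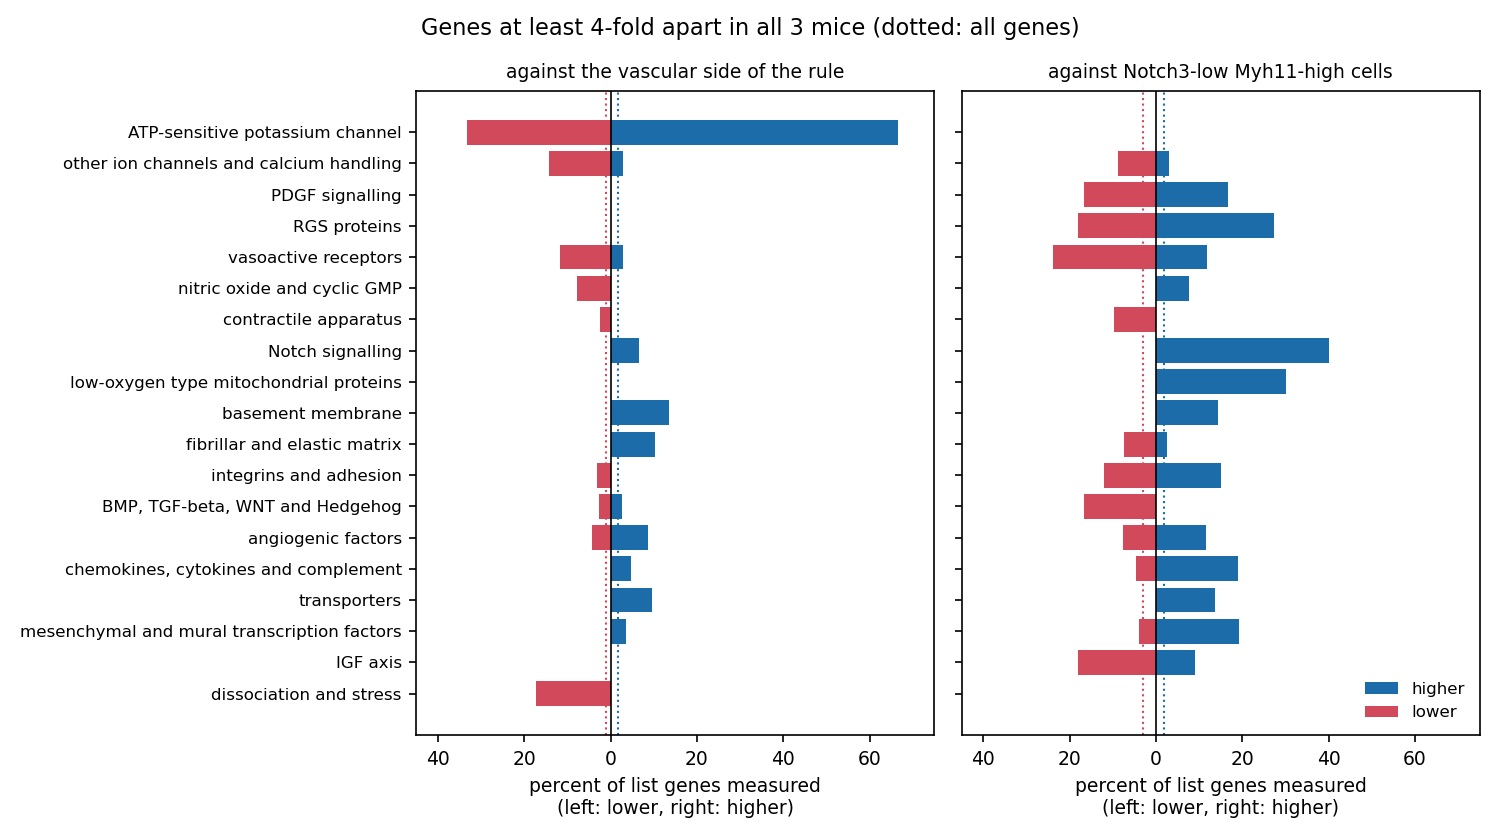
Percent of the measured genes of each list at least 4-fold higher (right, blue) or lower (left, red) in chosen cells in all 3 mice, against the vascular side of the rule and against Notch3-low Myh11-high cells; dotted lines give the percent over all genes tested. The potassium channel bars rest on 3 genes, of which the rule used 1.

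The vascular side of the male differed from that of both females, which bears on every comparison with it. Its 14 cells summed to 75.9 CPM of P2rx1, against 703 and 892 CPM in the females, and to 692 CPM of Vtn, against 172.4 and 183.6. In it 2 of 14 cells were within 2-fold of the limit of the rule, against 0 of 10 and 6 of 89. With only vascular cells at least 4-fold beyond the limit, 2.34% of 10937 genes were called higher and 1.12% lower, and 94.4% of the genes first called higher were among them. Without the male the shares were 5.98% and 2.46%, without 20GG79:1 3.18% and 3.43%, and without 20GG95:3 6.11% and 3.46%, as a call in 2 mice is easier to meet than in 3.

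Within the class, the first 2 principal components of 7801 genes over the chosen cells of the 3 mice held 2.79% and 1.94% of the variance. At 1 end of both stood Chrdl1, a secreted BMP antagonist, with Cdh13, and on the first also Sdc1, Prss23, Synpo2, Colec11 and Pcdhgc3, on the second Igfbp5, Hmcn2, Postn, Actg2, Gstm1 and Lmcd1. At the other end were Cspg4 and Rgs4, with Cox4i2, Slc7a2, S1pr3, Notch1, Nrip2 and Ets1 on the first component and Tnfrsf21, Agtr1a, Emid1, Plxdc1, Enpep and Afap1l2 on the second. The first component had a rank correlation of 0.42 with the number of genes detected over those cells, which share libraries and depth with their plate. Its loadings had a rank correlation, sign ignored, of 0.93 with those from thinned cells, 0.90 with those of 20GG95:3 alone and 0.31 with those of 20GG79:1 alone.

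To show this range in counts, cells with at least 200 CPM of Chrdl1 were set beside cells with at least 200 CPM of Agtr1a. These 2 genes and the limit were picked after the components had been seen, so the contrast is descriptive. It also followed the order in which the cells of each plate were listed, as given below. Chrdl1 alone was high in 25 cells, Agtr1a alone in 34, both in 4 and neither in 74. By mouse, Chrdl1 was high in 2 of 42, 1 of 15 and 26 of 79 cells, and Agtr1a in 10, 5 and 22. The Chrdl1-high cells were on both plates of 20GG95:3, with 7 of 31 and 19 of 48 chosen cells. Median depths were alike, at 116360 counts for Chrdl1 alone and 121109 for Agtr1a alone.

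The 4 cells high in both genes were left out of the 2 sets that follow. Between cells high in Chrdl1 alone and in Agtr1a alone Cspg4 did not overlap. The 25 Chrdl1-high cells had at most 68.6 CPM of Cspg4 and 9 had none, while the 34 Agtr1a-high cells had at least 120.8 CPM and up to 7757. The 4 cells high in both had 0, 3.79, 7.03 and 1111 CPM, so that with them included Cspg4 overlapped. On the 2 plates of 20GG95:3 the summed levels were 3.45 and 7.86 CPM in Chrdl1-high cells and 1308 and 3851 CPM in Agtr1a-high cells. The 3 Chrdl1-high cells of the other 2 mice had at most 18.3 CPM. The low values thus appeared in all 3 mice, although in the line whose dsRED reporter is named for Cspg4. Listed in order, the chosen cells of each plate of these mice ended in a run low in Cspg4. On the plates of 20GG95:3 it went from 1797.3 to at most 8.52 CPM and from 960.4 to at most 100.9 CPM. In 20GG79:1 and the male it went from 528.9 to at most 13.8 CPM and from 2564.7 to at most 50.5 CPM. All 25 Chrdl1-high cells and no Agtr1a-high cell lay in these runs. Whether place on the plate or the sort gate set this contrast was not tested.

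Other genes followed. Colec11 was at 420 and 561 CPM on the 2 plates in Chrdl1-high cells and at 0.788 and 0 CPM in Agtr1a-high cells, and the 3 Chrdl1-high cells of the other mice had 552 to 726 CPM. Prrx1, a mesenchymal homeobox factor, was at 207.3 and 428.2 CPM against 0.788 and 0, and Lepr, the leptin receptor, at 176.2 and 297.7 CPM against 0.788 and 0. Colec11, Prrx1 and Lepr were absent from 8, 7 and 11 of the 25 Chrdl1-high cells. In the 3 Chrdl1-high cells of the other mice Prrx1 ranged from 0 to 1261 CPM and Lepr from 0 to 741 CPM. Acta2 was at 6730 and 5990 CPM against 1047 and 1086 CPM, and Actg2, the enteric actin, at 1605 and 1190 CPM against 12.6 and 38.2 CPM. Of 39 contractile genes 7 were at least 4-fold higher in Chrdl1-high cells on both plates and 0 lower, beside 8.58% higher and 6.52% lower over all genes tested. In the opposite direction, Plxdc1 was at 50.1 and 0 CPM against 958 and 1337 CPM, Rgs4 at 6.91 and 44.8 CPM against 1902 and 992 CPM, and Sstr2 at 0 and 4.33 CPM against 338.1 and 424.6 CPM. Plxdc1, Rgs4 and Sstr2 were absent from 9, 2 and 21 of the 34 Agtr1a-high cells. Dll4 had 0 counts in the 25 Chrdl1-high cells, which allows up to 0.791 CPM, and averaged 306.5 CPM in the 34 Agtr1a-high cells, where 10 had at least 200 CPM.

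Of the 6 pericyte markers only Cspg4 was called in this contrast. Rgs5 was at 4493 and 1776 CPM in Chrdl1-high cells and at 4868 and 3745 CPM in Agtr1a-high cells, and Notch3 at 3182 and 2112 against 2730 and 2648 CPM. Kcnj8, Vtn, Ndufa4l2 and Pdgfrb also stayed under a 4-fold difference on both plates. Single cells were less alike. Rgs5 had 0 counts in 2 Chrdl1-high cells and stood at 10.8, 11.1 and 23.1 CPM in others, while the lowest Agtr1a-high cell had 981 CPM. Ndufa4l2 had 0 counts in 5 Chrdl1-high and 0 Agtr1a-high cells, and Vtn in 3 and 4. Abcc9, which the rule used, stood at 1515 and 359.4 CPM in Chrdl1-high cells against 1423 and 2365 CPM, and was thus over 4-fold lower on 1 plate and even on the other. Markers of blood endothelium other than Plvap averaged at most 14.1 CPM over the cells of either set, and Pln, Kcna5 and the other vascular smooth muscle markers at most 5.15 CPM. Of the visceral muscle markers, Actg2, Fhl1 (2216 and 1342 against 409.8 and 354.6 CPM), Kcnmb1 (36.3 and 274.1 against 8.67 and 1.59 CPM) and Hhip (31.1 and 14.2 against 22.1 and 3.18 CPM) were above the Agtr1a-high cells on both plates, and of these 4 only Actg2 was at least 4-fold higher on both. The visceral markers Foxf2, F2r and Osr1 were not above the Agtr1a-high cells on both plates, and Bdkrb2 was too low to be tested. Of the fibroblast markers Col14a1 was called higher (172.7 and 132.1 against 3.15 and 0 CPM). Dcn (1821 and 1787 against 441.4 and 1263 CPM), Lum (15.5 and 167.1 against 11.8 and 6.36 CPM), Dpt (6.91 and 95.5 against 3.94 and 1.59 CPM) and Gsn (4198 and 2750 against 2041 and 1776 CPM) were also above on both plates and were not called. The part of muscle and fibroblast transcripts in this contrast was not tested. The calls over all genes must be read with the small numbers of cells in mind, as 846 of 9864 genes were at least 4-fold higher in Chrdl1-high cells on both plates (8.58%) and 643 lower (6.52%), from 4 and 18 Chrdl1-high against 11 and 7 Agtr1a-high cells.

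**Figure D4:**
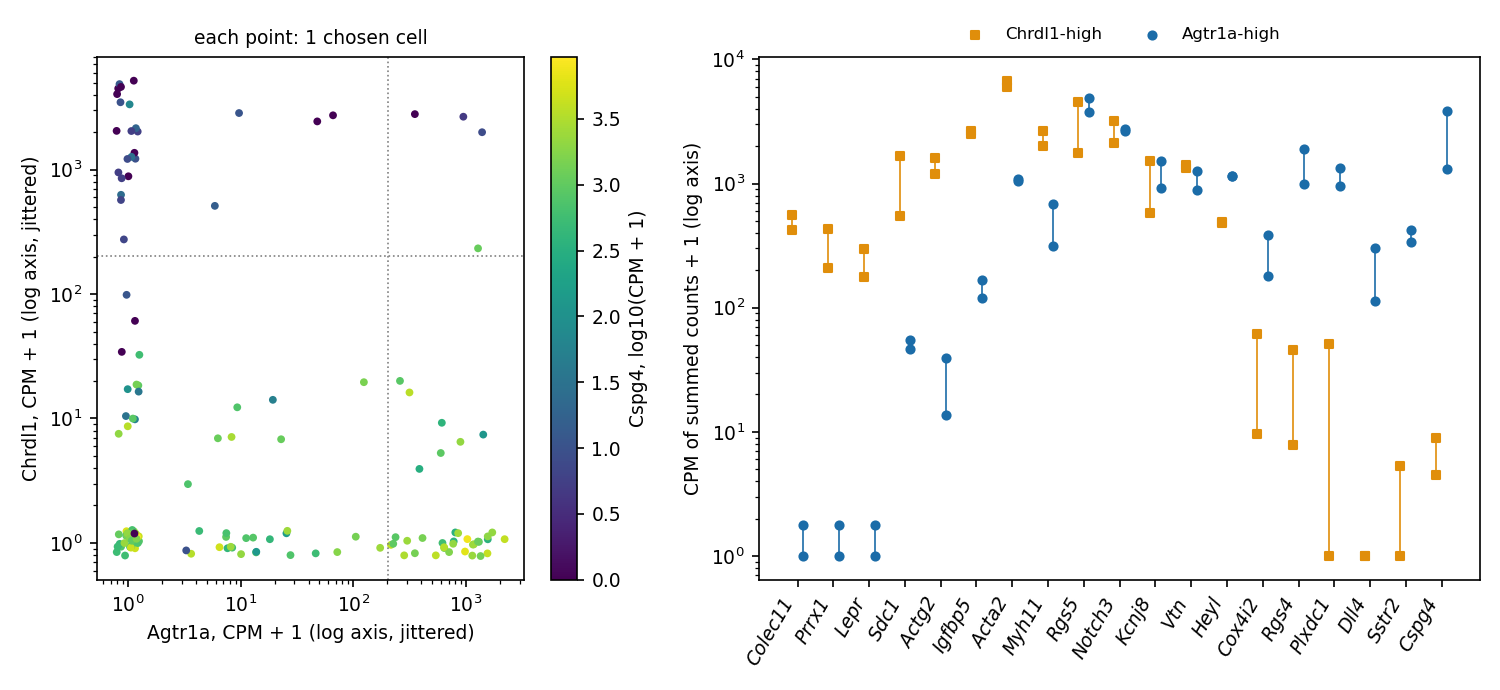
Left, Chrdl1 against Agtr1a in each chosen cell (CPM + 1, log axes, points jittered), coloured by Cspg4, with dotted lines at the 200 CPM limits. Right, summed level of 19 genes in Chrdl1-high (orange squares) and Agtr1a-high cells (blue circles) on the 2 plates of 20GG95:3; Cspg4 is dark in the cells at the upper left, and Rgs5, Notch3, Kcnj8 and Vtn stayed closer together than the genes at either side.

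The 20 genes of largest variation for their mean were mostly set by single cells. In Csf1r, Cd74 and H2-Eb1, immune genes, 1 cell held 90.02%, 81.02% and 83.3% of the summed CPM. Leng8 was the exception in breadth, with 34 cells at 200 CPM or more and 35.8% in the highest cell. Only 11 of the 20 were also among the 20 after thinning, 7 in 20GG95:3 alone and 3 in 20GG79:1 alone.

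Chosen cells of the 2 females were compared with those of the male by edgeR's quasi-likelihood test on summed counts, with 1 residual degree of freedom. At an adjusted p of 0.05, 0 of 16251 genes differed, and 2873 had an unadjusted p under 0.05. DESeq2 called 988 higher in females and 1099 higher in the male, and limma 0. Xist, expressed from the inactive X of females, had a log2 fold change of 15.08 ± 1.33 (SE) in favour of the females and an edgeR adjusted p of 0.0870. Sex, mouse and plate cannot be told apart for the male, whose chosen cells were on 1 plate.

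The single chosen cell of 19CB27:3, outside the dual reporter line, had 484.9 CPM of Notch3, 1903 CPM of Rgs5, 788 CPM of Pdgfrb, 861 CPM of Cspg4 and 254.6 CPM of Agtr1a. It had 24.2 CPM of Vtn, 230 CPM of Acta2 and 0 counts of Heyl. It entered none of the comparisons over mice.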

How the data were processed

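Single cells of mouse colon were sorted into plates and sequenced by Smart-Seq2, per the labels' protocols, which name heart as the tissue dissociated while the tissue label is colon. The deposited values are whole-number counts per gene and cell for 1615 cells. The submitters' processing notes name bcl2fastq, Bowtie, Bowtie2, Subread and featureCounts with the build GRCm38 (mm10), without versions or order. No strand setting is given, so overlapping genes can share reads, and without molecular identifiers counts are not independent molecules: intervals and floors (3 counts) cover counting error only. Of 46517 gene identifiers 46005 were given a symbol from GENCODE annotation.

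CPM leaves out the ERCC spike-in rows, which held a share of 2.86% of the counts in chosen cells. Cells were grouped by mouse, as the labels give it. Counts were summed per mouse and class where each class held 5 cells or more in a mouse, and genes entered at a mean of 10 CPM in either class. Doublets were not called; cells with markers of other types were counted and left out in an alternative. The members, lists and tests were chosen with earlier results of these data known. Genes named are the 15 higher and 10 lower with the largest difference in the least favourable mouse (at least 50 CPM, rule genes left out), up to 4 of each list per direction, and the markers; Plvap, Pecam1, Chrdl1 and the genes beside it were named after their values were seen. Variation was the squared coefficient of variation over a running median of 100 genes. Genes entered with a mean of at least 20 CPM over cells and a count in at least 10% of cells. The sexes were compared with edgeR 4.0.16 (R 4.3.3), with DESeq2 1.42.0 and limma 3.58.1 as alternatives and Benjamini-Hochberg adjustment. Alternatives were other pseudocounts, scalings, filters, limits of the rule, and leaving out each mouse or plate. Share intervals are exact Clopper-Pearson. The class comparison was tested on simulated data with 200 genes changed 8-fold, and recovered 94.5%, 89.5% and 92% of them against the 3 references with 0 false calls. The simulated sums shared the same means in all mice, with a small fixed spread and no variation between cells. They therefore give no rate of false or missed calls for the real sums, some of which came from few cells. Python 3.11.15 with numpy 2.4.6 and pandas 2.3.3 did the rest. Cells of 1 mouse were not treated as replicates. Some genes that the naming rule would give are not reported here.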

Additional observations from a re-analysis of the deposited data

Results flagged for a closer look

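For 7 named genes the male moved at least 2-fold one way and both females at least 2-fold the other; these differences between the sexes were not tested. Values are log2 differences of chosen cells from the reference, for the male and then for 20GG79:1 and 20GG95:3. Against the vascular side, Col12a1, a fibril-associated collagen, differed by -1.37 in the male and by 3.25 and 3.21 in the females. Cyp4b1, a cytochrome P450, differed by -1.23 in the male and by 5.90 and 3.53 in the females. Higd1b, the low-oxygen mitochondrial protein, was at -2.08 in the male against 4.97 and 2.99. Itga11, a collagen-binding integrin, was at -4.80 against 1.47 and 2.53. Vipr1 and Vipr2, receptors of vasoactive intestinal peptide, went opposite ways, Vipr1 at -1.44 against 6.38 and 2.09, and Vipr2 at 1.76 against -2.86 and -5.72. Of these 7, 6 concern the vascular side, whose 14 cells in the male had a median of 0 CPM P2rx1 and 153.2 CPM Vtn, against 407.3 and 18.01 CPM in 20GG79:1 and 650 and 3.24 CPM in 20GG95:3. Against Notch3-low Myh11-high cells, Npy1r differed by -1.03 in the male and by 4.53 and 2.03 in the females.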

How the results depend on the processing

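The rule chose 7.99% to 8.92% of all cells under its other limits. The shares of tested genes called at least 4-fold moved with the pseudocount and with the number of mice a call needs. With a pseudocount of 5 CPM, 0.359% were higher and 1.18% lower than in all other cells, 0.848% and 0.575% against the vascular side, and 1.496% were lower than in Notch3-low Myh11-high cells. Leaving out 1 mouse at a time gave 1.08% to 1.70% higher and 3.74% to 9.07% lower against all other cells, 3.18% to 6.11% and 2.46% to 3.46% against the vascular side, and 2.58% to 3.68% and 4.05% to 7.91% against Notch3-low Myh11-high cells. Of the 68, 48 and 83 genes named in the 3 comparisons, 0 reversed under the alternatives run. They had been picked for the same direction in every mouse, so leaving out a mouse or changing the pseudocount or minimum CPM could not reverse them. Of their 816, 624 and 996 values under the alternatives, 54, 63 and 79 moved by more than the SD over mice. Between the sexes, DESeq2 called 6.08% of genes higher in females and 6.76% in the male, where edgeR called 0. EdgeR with no filter called 2.37% and 3.51%, and in cells of at least 100000 counts 0.235% and 1.42%. Uty turned from -0.20 to 0.00763 (log2) with the spread shared over classes. Of the 20 most variable genes 11 were shared after thinning, 3 in 20GG79:1 alone and 7 in 20GG95:3 alone, and the first component held 4.21% in 20GG79:1 alone. The causes of these changes were not tested. Leaving out every cell with 2 markers of another class was not run as a comparison, since 15 chosen cells and at most 1 mouse remained. Leaving out a female could not be fitted, with no residual degrees of freedom among samples. No paired analysis was possible because replicate numbers only number the cells of a group in accession order, and the class comparisons already took differences within each mouse. Genes near the floor of 3 counts are limited by depth.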

Other observations

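Angiopoietin-2 (Angpt2), a ligand of the endothelial receptor Tie2, stood at 535, 1228 and 470.995 CPM in chosen cells, above the vascular side (424.7, 454.1 and 247.1 CPM) in each mouse. Egflam, which encodes the matrix protein pikachurin, stood at 751, 504.4 and 498.6 CPM against 307.05, 284.3 and 314.5 CPM on the vascular side. Neither passed the 4-fold limit there. Chrdl1 also had a mean of 177.8 CPM over Notch3-low Myh11-high cells and 10.6 CPM over the vascular side, beside 451.1 CPM over all chosen cells, while Colec11 had 0.958, 4.47 and 140 CPM.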
